A study of Mus musculus with 18 samples.

Results

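The hepatocyte identity transcription factors were 9 genes chosen by name for their established roles in liver: Hnf4a, Cebpa, Cebpb, Foxa1, Foxa2, Foxa3, Onecut1, Nr5a2 and Prox1. Earlier results of these data were known when they were chosen. All 9 were among the 35441 genes of the deposited liver RNA-seq table, and all 9 were among the 14533 genes that reached more than 100 reads in all over the 18 libraries and were tested. The libraries formed 6 groups of 3 male mice: WT mice, Lipa-/- mice and Lipa-/- mice given rAAV8 (treated below), sampled at 12-weeks post-injection, and other mice of the same 3 kinds at 34-weeks (3 and 8 months in the labels). Lipa encodes lysosomal acid lipase, the enzyme that hydrolyses cholesterol esters and triglycerides in lysosomes. The Lipa-/- line carried the Lipa tm1a(EUCOMM)Hmgu/Biat allele crossed with CMV-Cre, which removed exon 4 in all tissues, on a C57/BL6N background, and the WT mice were littermates with no vector. Treated mice received, through the tail vein at 10 to 12 weeks of age, an rAAV8 vector carrying human LIPA cDNA behind the hAAT promoter, which is active in hepatocytes, so cells of other types kept the deletion without a promoter meant to drive the transgene in them. Per the methods, a single untreated Lipa-/- mouse was still alive at 34-weeks and the rest had been killed earlier at humane endpoints. At least 2 of the 3 livers labelled as the untreated 34-weeks group were therefore from younger mice, whose ages are not given in the sources used here, so age and genotype or treatment cannot be told apart in any comparison with that group.

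Hepatocyte identity is held by a small set of transcription factors that bind each other's regulatory regions as well as the genes for plasma proteins, bile acids, lipid and nitrogen metabolism. HNF4A is a nuclear receptor needed for most adult hepatocyte functions, the FOXA proteins are pioneer factors that open chromatin, and ONECUT1 (also named HNF6) is a cut-homeodomain factor of hepatocytes and bile duct cells. C/EBPA and C/EBPB are basic leucine zipper proteins that recognise the same sites, the first linked to quiescent metabolic hepatocytes and the second to inflammation, acute phase and regeneration, while NR5A2 (LRH-1) and PROX1 act on bile acid genes as an activating receptor and a corepressor.

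Before the members were compared, the libraries were checked. They held 17527848 to 25833134 reads each, so 3 reads corresponded to 0.0946 to 0.291 CPM (read counts per 1000000 reads after scaling by TMM, the trimmed mean of M-values). Mouse Lipa, the targeted gene, was at 202 to 323 CPM in the 6 WT livers and at 16.7 to 37 CPM in the 12 livers with the deletion. The human transgene was at 523 to 2750 CPM in the 6 treated livers, at 0 in every untreated Lipa-/- liver and in WT livers at 12-weeks, and at 0.059, 0.906 and 0 CPM in the 3 WT livers at 34-weeks. The 3 treated livers of 12-weeks stood apart from the other libraries: their TMM factors were 0.587, 0.759 and 0.627 and their second principal component scores were -143.6, -75.5 and -60.1, against -46.1 to 71.2 in the other 15. All 34-weeks mice carried 1 study code in the labels and the 12-weeks mice another, apart from Lipa-/- mouse 5, which had its own, so time and study code cannot be told apart. Nothing in the labels says more of separate handling. The edgeR p-values rest on the spread between mice within groups, estimated over all 18 libraries together. Hepatocytes were present in all livers by their defining genes, since the summed level of 11 secreted hepatocyte products such as albumin was between 33600 and 137000 CPM.

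Promoter windows of Hnf4a, Foxa1 and Foxa2 that held a binding motif of an HNF1, ONECUT or FOXA protein are shown first, because the levels of these genes and of factors that read the motifs are among the results. Each runs from 250 bases before to 50 bases after a RefSeq transcription start, 5′ to 3′ on the gene's strand, in the GRCm38.p6 build, with the motif in capitals on whichever strand it lies. The motif is ATTGAT (ONECUT) in the upstream Hnf4a window, chr2:163506607-163506906 on the plus strand, with its first base at -59 from the start. It is GTTAAT (HNF1), at -81 and -74, in the downstream Hnf4a window, chr2:163546905-163547204 on the plus strand. The Foxa1 window, chr12:57546062-57546361 on the minus strand, held TGTTTAC (FOXA) at -141. The first Foxa2 window, chr2:148046920-148047219 on the minus strand, held ATTGAT at -213, and another Foxa2 window, chr2:148045415-148045714 on the minus strand, held GTTAAT at -176.
Hnf4a upstream start: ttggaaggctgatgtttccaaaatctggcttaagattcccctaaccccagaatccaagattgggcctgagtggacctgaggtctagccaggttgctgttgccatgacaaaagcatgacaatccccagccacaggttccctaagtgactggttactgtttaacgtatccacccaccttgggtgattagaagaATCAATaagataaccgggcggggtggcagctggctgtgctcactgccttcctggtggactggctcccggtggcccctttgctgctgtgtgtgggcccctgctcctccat
Hnf4a downstream start: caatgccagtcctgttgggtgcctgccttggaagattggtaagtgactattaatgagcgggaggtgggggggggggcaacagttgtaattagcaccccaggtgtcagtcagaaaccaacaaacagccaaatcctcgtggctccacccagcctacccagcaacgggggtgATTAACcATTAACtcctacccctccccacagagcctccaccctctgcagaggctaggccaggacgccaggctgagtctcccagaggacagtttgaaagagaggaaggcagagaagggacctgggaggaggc
Foxa1: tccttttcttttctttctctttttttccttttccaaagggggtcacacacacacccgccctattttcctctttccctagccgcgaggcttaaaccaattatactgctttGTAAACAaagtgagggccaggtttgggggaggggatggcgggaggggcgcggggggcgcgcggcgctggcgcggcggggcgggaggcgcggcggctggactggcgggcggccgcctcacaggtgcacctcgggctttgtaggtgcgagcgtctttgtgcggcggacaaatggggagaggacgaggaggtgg
Foxa2 upstream start: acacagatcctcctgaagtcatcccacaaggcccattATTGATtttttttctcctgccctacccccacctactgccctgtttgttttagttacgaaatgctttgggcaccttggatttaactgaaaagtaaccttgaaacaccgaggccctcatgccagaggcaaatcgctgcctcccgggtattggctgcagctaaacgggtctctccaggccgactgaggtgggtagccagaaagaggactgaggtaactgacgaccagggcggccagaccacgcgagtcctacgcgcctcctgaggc
Foxa2 downstream start: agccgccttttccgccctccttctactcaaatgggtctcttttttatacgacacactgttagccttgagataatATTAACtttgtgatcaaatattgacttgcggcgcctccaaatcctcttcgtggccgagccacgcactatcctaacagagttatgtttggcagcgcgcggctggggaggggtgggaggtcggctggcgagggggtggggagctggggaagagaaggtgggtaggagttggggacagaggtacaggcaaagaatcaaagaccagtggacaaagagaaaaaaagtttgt
Over 32851 mouse RefSeq windows of this length, searched on both strands, ATTGAT was in 7.54%, GTTAAT in 7.1% and TGTTTAC in 3.65%, and it was in 2, 3 and 1 of the 14 windows of the 9 members. The other FOXA motif searched, TATTTAC (3.04% of all windows), the NR5A2 motif CAAGGTCA (1.56%) and the HNF4A motif AAAGTCCA (1.25%) were in none of the 14, and the C/EBP motif TTGCNNAA (10.8%) was in 1. The windows of Nr5a2, not printed, held GTTAAT at -236 and TTGCNNAA at -243, and no motifs overlapped. A match describes letters and not binding, and no match says only that these letters were not in the window.

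In WT livers the levels per transcript length, in TPM (transcripts per 1000000 transcripts), put Cebpa first, followed by Hnf4a and Cebpb. At 12-weeks the WT means were 171 ± 56.7 TPM for Cebpa, 87.1 ± 37.5 for Hnf4a and 82.7 ± 15.2 for Cebpb (SD, n = 3), and then 24.3 for Foxa3, 23.4 for Foxa2, 12.7 for Onecut1, 7.87 for Nr5a2, 6.94 for Foxa1 and 3.5 for Prox1. Only the step from Cebpb to Foxa3 separated neighbours of that order without overlap between mice. WT livers at 34-weeks had the same first 3, at 211 TPM for Cebpa, 97.6 for Hnf4a and 78 for Cebpb, and Onecut1 was last at 2.38 TPM. In Lipa-/- livers Cebpb stood first at both times, at 167 ± 53.4 TPM at 12-weeks, where it overlapped with Cebpa at 137 ± 22.1, and at 191 ± 59.9 TPM at 34-weeks, where every liver was above the Cebpa range, which had a mean of 121 ± 20.9. In treated livers of 12-weeks the order was Cebpa at 57.1, Foxa3 at 22.5, Hnf4a at 15.7 and Cebpb at 12.2 TPM, and in treated livers of 34-weeks it was again Cebpa at 218, Hnf4a at 104 and Cebpb at 70.6 TPM.

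**Figure D1:**
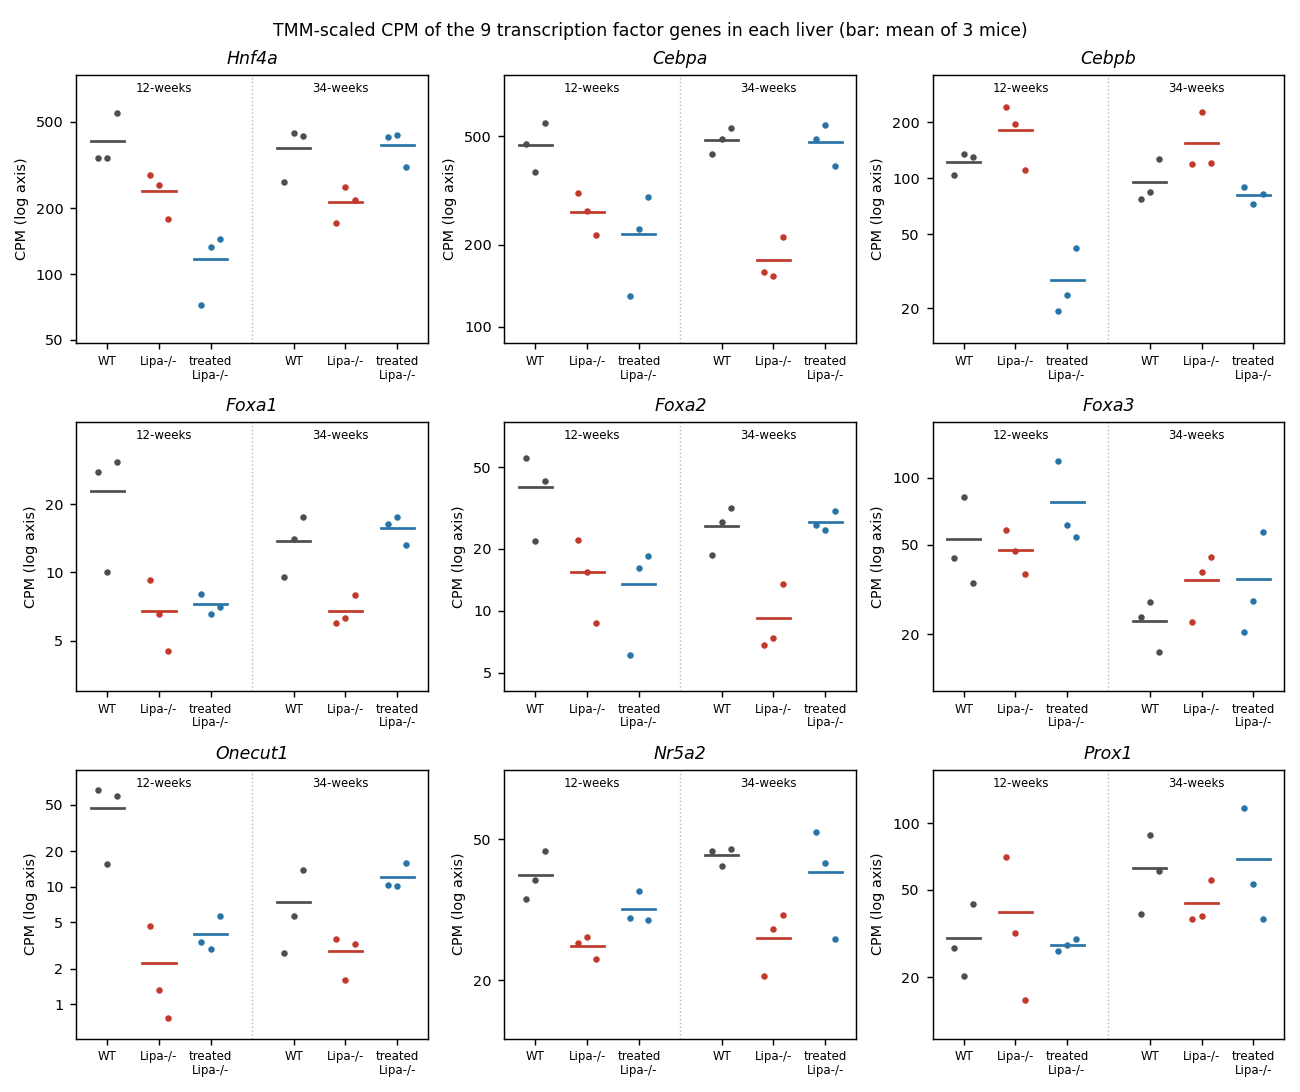
Level of each of the 9 transcription factors in each liver, in CPM on a log axis, by group and time; points are single mice and bars are means of 3 mice. Onecut1 spans 0.768 to 66.2 CPM, with WT mice 1 and 3 of 12-weeks on top, and Cebpb in the 3 treated livers of 12-weeks, at 19.4 to 42.2 CPM, lies below all other livers.

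The first comparison asked what loss of lysosomal acid lipase did to the factors. At 12-weeks 5 of the 9 members, Cebpa, Foxa1, Foxa2, Onecut1 and Nr5a2, were lower in Lipa-/- than in WT livers at an adjusted p under 0.05 (edgeR quasi-likelihood test, Benjamini-Hochberg over all genes), against 16.3% of all genes tested that were lower. Foxa1, Foxa2 and Onecut1 were also lower by more than 1 on the log2 scale, against 9.06% of genes, and 5 members (Hnf4a, Cebpa, Foxa1, Onecut1 and Nr5a2) had all 3 Lipa-/- livers below all 3 WT livers, against 24.1%. At 34-weeks 5 members, Hnf4a, Cebpa, Foxa1, Foxa2 and Nr5a2, were lower, against 23.5% of genes, of which Cebpa, Foxa1 and Foxa2 by more than 1 log2 unit, against 15.7%, and the same 5 had no overlap between groups, against 29.8%. No member rose at either time under TMM scaling. The median log2 difference of the members was -0.78 at 12-weeks and -0.83 at 34-weeks, where the median of all genes was 0.02 and -0.03. These counts depended on the scaling. Scaled to the 11 secreted hepatocyte products, which moves the median of all genes to 0.45 at 12-weeks and 1.10 at 34-weeks, 2 members were lower at 12-weeks (Foxa1 at -1.37 and Onecut1 at -3.97). At 34-weeks that scaling left none of the 5 lower calls, with Hnf4a at 0.23, Cebpa at -0.40, Foxa1 at 0, Foxa2 at -0.50 and Nr5a2 at 0.30, and 2 members passed as higher, Cebpb at 1.80 and Foxa3 at 1.68. The 11 products themselves had medians of -0.62 at 12-weeks and -1.13 at 34-weeks under TMM scaling. They include Apoa2 and Ttr, counted below as targets of HNF4A and of FOXA, so this scaling is not independent of the members. Scaled to total reads, Foxa1 and Onecut1 were lower and Cebpb higher at 12-weeks, and at 34-weeks Cebpa was lower and Cebpb and Foxa3 higher. In bulk liver, fewer hepatocytes and less RNA per hepatocyte cannot be told apart.

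Markers of other cells moved along with these differences. The summed level of 12 macrophage markers was 127 to 498 CPM in WT livers, 4440 to 9200 CPM in Lipa-/- livers at 12-weeks and 4510 to 6290 CPM at 34-weeks. Lyz2 and Gpnmb made up most of it, at 3980 and 2010 CPM in Lipa-/- livers of 12-weeks, where the sum averaged 7100 CPM. Timd4 was lower than in WT at both times. Cholangiocyte markers (8 genes) summed to 30.3 to 60.2 CPM in WT and to 455 to 2240 and 1020 to 1800 CPM in Lipa-/- livers. Most of that sum was 1 gene: in Lipa-/- livers Spp1 averaged 1060 and 1420 CPM, where the sum averaged 1100 and 1480 CPM. At 12-weeks 4 of the 8 genes passed as higher, and Krt7, Krt19, Muc1 and Cldn7 did not pass. Stellate markers (6 genes) summed to 28.5 to 63.3 CPM in WT against 321 to 548 and 624 to 1460 CPM in Lipa-/- livers. The 11 hepatocyte products summed to 83100 to 106000 CPM in WT and 58500 to 78100 CPM in Lipa-/- livers at 12-weeks, and to 78300 to 104000 against 33600 to 65900 CPM at 34-weeks. The part of these cells in the members' differences was not tested.

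The second comparison asked how treated livers stood against WT. At 12-weeks 6 members, Hnf4a, Cebpa, Cebpb, Foxa1, Foxa2 and Onecut1, were lower in treated livers, all by more than 1 log2 unit, where 17.5% of all genes were lower and 12% were lower by more than 1 log2 unit. All 6 passed under every scaling tried (TMM, total reads, DESeq2 size factors and the hepatocyte products), and the median of the 9 was -1.55 against 0.06 over all genes. At 34-weeks none of the 9 passed, nor did most other genes, since 0.22% passed in either direction. The members then ranged from -0.23 for Cebpb to 0.71 for Onecut1, with adjusted p of 0.965 or more (edgeR) and a median of 0.07, and DESeq2 passed none of them either. None of the 9 had an unadjusted p under 0.05 there, the lowest being 0.151 for Foxa3. Markers of other cells also stood above WT in treated livers of 12-weeks: the macrophage sum was 1050 to 2960 CPM against 127 to 329, with 8 of 12 genes higher, and the stellate sum 83.5 to 360 CPM against 28.5 to 49.6, with 2 of 6 higher. Those 2 were the collagen genes Col1a1 and Col3a1. The lymphocyte sum was 9.81 to 14 CPM against 1.72 to 3.59, with 3 of 6 genes higher, where 2813 of the 14533 genes tested were higher. The part of these cells in the members' differences was not tested. For the 34-weeks result, a missed threshold does not show equality, and the standard errors of 0.23 to 0.63 leave room for changes of that order.

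Treated and untreated Lipa-/- livers were then set against each other, with the same Lipa-/- and treated libraries as above. At 12-weeks only Hnf4a and Cebpb passed, both lower in treated livers, where 30.4% of all genes were lower. At 34-weeks 6 members (Hnf4a, Cebpa, Foxa1, Foxa2, Onecut1 and Nr5a2) were higher in treated livers, against 19.6% of genes, and Cebpb was lower, against 21.4%. Under scaling to the hepatocyte products none of the 6 was still called higher: Hnf4a and Nr5a2 turned to -0.21 and -0.41, and Cebpa was at 0.37, Foxa1 at 0.15, Foxa2 at 0.56 and Onecut1 at 1.0, while Cebpb was still lower, at -2.03. The products themselves, which include listed targets of the members, had a median of 1.04 in this comparison under TMM scaling. Scaled to total reads, Cebpa (0.90) was the member that still passed as higher and Cebpb (-1.45) as lower. With time as the contrast, no member passed in WT livers, where 0.33% of genes passed, or in Lipa-/- livers, where 0.523% passed. In treated livers 5 members were higher at 34-weeks than at 12-weeks, against 23.9% of genes, and Foxa3 was lower, against 21.4%.

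**Figure D2:**
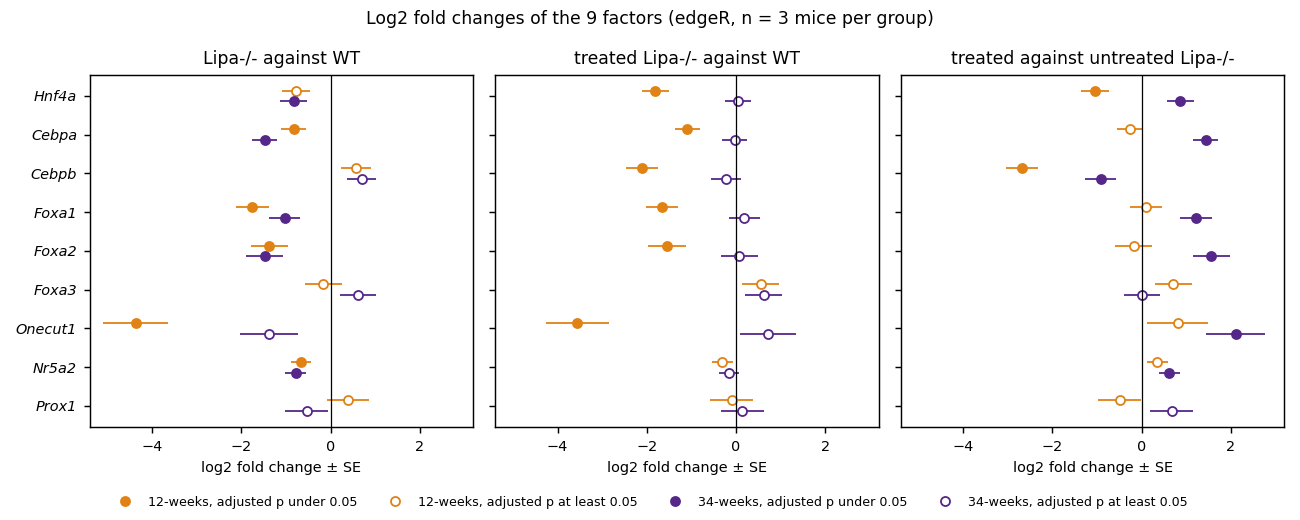
Log2 fold changes of the 9 members in Lipa-/- against WT, treated against WT and treated against untreated Lipa-/- livers, at 12-weeks and 34-weeks, with bars of 1 standard error from the edgeR fit; filled points had an adjusted p under 0.05. Treated livers lie near 0 against WT at 34-weeks, from -0.23 to 0.71, and 6 members lie below -1 at 12-weeks.

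Hnf4a, the nuclear receptor at the centre of the network, spans 66103 bases of chromosome 2 (chr2:163348728-163414830, plus strand, GRCm39) with 10 exons. At 12-weeks it was at 341, 340 and 549 CPM in WT livers, at 285, 256 and 178 CPM in Lipa-/- livers and at 72, 133 and 145 CPM in treated livers. The 3 groups did not overlap, with WT on top and treated livers at the bottom. The Lipa-/- difference of -0.78 (SE 0.31) had an adjusted p of 0.0536, which missed the threshold (edgeR), and without the 3 treated libraries of 12-weeks in the fit it was -0.82 with an adjusted p of 0.0248, in a range of 0.000555 to 0.585 over all settings tried. Treated livers were 3.51-fold lower than WT (log2 -1.81, SE 0.31, adjusted p = 0.00229) and 2.05-fold lower than Lipa-/- livers (log2 -1.04, SE 0.31, adjusted p = 0.00968).
Hnf4a at 34-weeks was at 264, 443 and 432 CPM in WT, 172, 251 and 218 CPM in Lipa-/- and 425, 436 and 310 CPM in treated livers. Here the Lipa-/- livers lay below both other groups, and WT and treated livers overlapped. Lipa-/- livers were 1.78-fold lower than WT (adjusted p = 0.0344), and treated livers were 1.83-fold higher than Lipa-/- livers (adjusted p = 0.031). Both calls rested on single libraries: the first was lost without WT mouse 2 (-0.70) or 3 (-0.73) or Lipa-/- mouse 4 (-0.66) or 6 (-0.83), and the second without Lipa-/- mouse 4 (0.70) or 6 (0.88) or treated mouse 9 (0.80) or 11 (0.78).

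The C/EBP genes are intron-poor and GC-rich. Cebpa, the metabolic member, lies on chr7:34818718-34821353 (plus strand, GRCm39) as 1 exon, and Cebpb on chr2:167530835-167532338 (plus strand), also as 1 exon. At 12-weeks Cebpa was at 467, 368 and 561 CPM in WT livers, 308, 265 and 216 CPM in Lipa-/- livers and 130, 229 and 298 CPM in treated livers. WT livers lay above all others, while Lipa-/- and treated livers overlapped. Cebpa was 1.77-fold lower in Lipa-/- livers (log2 -0.82, SE 0.28, adjusted p = 0.0265), a call lost without WT mouse 1 (-0.82) or 3 (-0.67) or Lipa-/- mouse 8 (-0.82) or 9 (-0.70), and 2.12-fold lower in treated livers (log2 -1.09, adjusted p = 0.00967), lost without WT mouse 3 (-0.93).
At 34-weeks Cebpa was at 430, 488 and 534 CPM in WT, 159, 153 and 214 CPM in Lipa-/- and 488, 550 and 388 CPM in treated livers. The Lipa-/- livers were again lowest, with no overlap, at 2.76-fold below WT (log2 -1.47, SE 0.28, adjusted p = 0.00042). Treated livers were 2.71-fold above Lipa-/- livers (adjusted p = 0.00061). Both of these calls held without any 1 of the libraries.

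Cebpb moved the other way from Cebpa in Lipa-/- livers without passing the test on its own. It was at 104, 134 and 130 CPM in WT, 240, 195 and 110 CPM in Lipa-/- and 19.4, 23.7 and 42.2 CPM in treated livers at 12-weeks. The Lipa-/- and WT ranges overlapped through Lipa-/- mouse 9, and all treated livers were far below both groups. The Lipa-/- difference was 0.57 (SE 0.33, adjusted p = 0.194), while treated livers were 4.31-fold lower than WT (log2 -2.11, SE 0.35, adjusted p = 0.00196) and 6.39-fold lower than Lipa-/- livers (log2 -2.68, SE 0.36, adjusted p = 2.31e-05).
At 34-weeks Cebpb was at 76.9, 84 and 126 CPM in WT, 119, 226 and 120 CPM in Lipa-/- and 89.6, 73 and 82.3 CPM in treated livers. The difference of Lipa-/- livers from WT was 0.70 (SE 0.33, adjusted p = 0.0978). Treated livers were 1.9-fold below Lipa-/- livers (adjusted p = 0.0359), a call lost without Lipa-/- mouse 5 (-0.56) or treated mouse 9 (-1.0), 11 (-0.85) or 12 (-0.95). Scaled to total reads, which moves the median of all genes to 0.49 at 12-weeks and 0.60 at 34-weeks, Cebpb was higher in Lipa-/- livers by 1.04 and 1.30 and passed at both times.

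Because both proteins bind the same sites and both transcripts were read in the same library, the ratio of Cebpb to Cebpa does not depend on library scaling. At 12-weeks the ratio of CPM was 0.223, 0.365 and 0.231 in WT, 0.779, 0.734 and 0.509 in Lipa-/- and 0.15, 0.103 and 0.141 in treated livers. At 34-weeks it was 0.179, 0.172 and 0.236 in WT, 0.754, 1.48 and 0.559 in Lipa-/- and 0.184, 0.133 and 0.212 in treated livers. Every Lipa-/- liver was above every WT and treated liver, and Lipa-/- mouse 5 of 34-weeks had more reads from Cebpb than from Cebpa. The Lipa-/- ratio was 3.32-fold that of WT over both times (log2 difference 1.73; two-sided exact permutation test within time, p = 0.005, the smallest its 400 splits allow), and leaving out any 1 library gave 1.53 to 1.88. The difference was 1.32 at 12-weeks and 2.14 at 34-weeks. The treated ratio was 2.05-fold lower than WT at 12-weeks (log2 difference -1.03), without overlap, and 1.12-fold lower at 34-weeks (-0.16), where the groups overlapped. Within 1 time the exact permutation test of 3 against 3 mice cannot go below p = 0.1, which the 12-weeks difference reached, and the 34-weeks difference had p = 0.6. Pooled over both times, which differed in size, the treated difference was -0.60 (exact permutation p = 0.03), which passed 0.05 no longer without WT mouse 2 of 12-weeks (-0.48), treated mouse 11 (-0.52) or 12 (-0.63) of 12-weeks, WT mouse 3 of 34-weeks (-0.53) or treated mouse 11 of 34-weeks (-0.50).

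**Figure D3:**
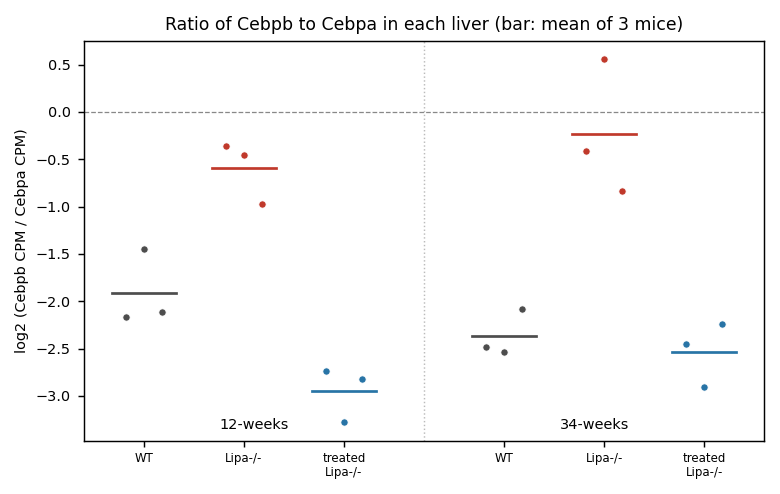
Log2 of the ratio of Cebpb to Cebpa CPM in each liver, by group and time; points are single mice, bars are means of 3 mice, and the dashed line marks equal levels. As ratios, the 6 Lipa-/- livers lie between 0.509 and 1.48, above the WT livers at 0.172 to 0.365 and the treated livers at 0.103 to 0.212.

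The FOXA pioneer factors come from 3 genes on separate loci. Foxa1 (chr12:57587414-57593702, minus strand, GRCm39) was at 27.8, 10 and 30.7 CPM in WT, 9.26, 6.56 and 4.49 CPM in Lipa-/- and 8.06, 6.58 and 7.05 CPM in treated livers at 12-weeks. WT mouse 2 lay just above the highest Lipa-/- liver, and neither other group overlapped with WT. Foxa1 was 3.36-fold lower in Lipa-/- (log2 -1.75, SE 0.36, adjusted p = 0.000941) and 3.16-fold lower in treated livers (log2 -1.66, SE 0.36, adjusted p = 0.0051), and both calls held without any 1 library.
Foxa1 at 34-weeks was at 9.56, 14.1 and 17.6 CPM in WT, 5.96, 6.26 and 7.98 CPM in Lipa-/- and 16.3, 17.5 and 13.2 CPM in treated livers. It was 2.05-fold lower in Lipa-/- than in WT livers (adjusted p = 0.0224, lost without WT mouse 3 at -0.82 or Lipa-/- mouse 4 at -0.92 or 5 at -0.98). Treated livers were 2.33-fold above Lipa-/- livers (adjusted p = 0.0104, lost without Lipa-/- mouse 4 at 1.10). The Lipa-/- livers were thus the lowest at 34-weeks, and at 12-weeks they and the treated livers were low together.

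Foxa2 (chr2:147884797-147889005, minus strand, GRCm39) was at 55.2, 21.8 and 42.9 CPM in WT, 22, 15.5 and 8.77 CPM in Lipa-/- and 6.12, 16.1 and 18.5 CPM in treated livers at 12-weeks. WT mouse 2 and Lipa-/- mouse 5 nearly coincided, so those groups overlapped, and all treated livers were below WT. Foxa2 was 2.59-fold lower in Lipa-/- livers (log2 -1.37, SE 0.42, adjusted p = 0.0157, lost without WT mouse 1 at -1.07 or Lipa-/- mouse 9 at -1.09). It was 2.93-fold lower in treated livers (log2 -1.55, SE 0.43, adjusted p = 0.0125, lost without WT mouse 1 at -1.25 or treated mouse 10 at -1.29).
At 34-weeks Foxa2 was at 18.8, 27.2 and 31.5 CPM in WT, 6.81, 7.38 and 13.5 CPM in Lipa-/- and 26.2, 24.6 and 30.7 CPM in treated livers. All Lipa-/- livers were below the other 6. The difference from WT was 2.8-fold (adjusted p = 0.00842, lost without Lipa-/- mouse 4 at -1.27), and treated livers were 2.95-fold above Lipa-/- livers (adjusted p = 0.00726).

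Foxa3 (chr7:18747209-18757471, minus strand, GRCm39) did not pass in any comparison with WT under TMM scaling. It was at 43.8, 81.9 and 33.9 CPM in WT, 58.4, 47 and 37.1 CPM in Lipa-/- and 118, 61.2 and 54.2 CPM in treated livers at 12-weeks. At 34-weeks it was at 23.9, 27.9 and 16.7 CPM in WT, 22.6, 38 and 44.4 CPM in Lipa-/- and 20.4, 28.1 and 57 CPM in treated livers. The groups overlapped within each time, and Foxa3 differed from WT by -0.16 and 0.62 in Lipa-/- livers and by 0.55 and 0.62 in treated livers. The fall of 1.15 log2 units between treated livers of 12-weeks and 34-weeks (adjusted p = 0.0341) was lost without treated mouse 10 of 12-weeks (-0.68) or treated mouse 9 (-0.87) or 11 (-1.01) of 34-weeks. Scaled to total reads or to hepatocyte products, Foxa3 was higher in Lipa-/- livers of 34-weeks, by 1.22 and 1.68, and passed.

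Onecut1 (chr9:74769118-74800594, plus strand, GRCm39) had the widest spread of the 9. At 12-weeks it was at 66.2, 15.5 and 59.5 CPM in WT, 4.68, 1.32 and 0.768 CPM in Lipa-/- and 3.4, 2.93 and 5.67 CPM in treated livers. Every WT liver was above every other one at that time, WT mouse 2 by the smallest margin. Onecut1 was 20.6-fold lower in Lipa-/- livers (log2 -4.37, SE 0.72, adjusted p = 0.000147) and 11.8-fold lower in treated livers (log2 -3.56, SE 0.70, adjusted p = 0.00359), and both calls held without any 1 library.
At 34-weeks Onecut1 was at 2.71, 5.68 and 13.8 CPM in WT, 3.59, 1.62 and 3.27 CPM in Lipa-/- and 10.4, 10.2 and 16 CPM in treated livers. WT mouse 1 lay within the Lipa-/- range, and the difference of -1.39 (SE 0.65) had an adjusted p of 0.0896, which without that library was -1.78 and 0.0386, in a range of 0.0386 to 0.66 over all settings. Treated livers were 4.3-fold above Lipa-/- livers with no overlap (adjusted p = 0.0167, lost without Lipa-/- mouse 5 at 1.82 or treated mouse 12 at 1.83). WT livers themselves were 6.31-fold lower at 34-weeks than at 12-weeks without overlap (log2 -2.66, SE 0.66), with an adjusted p of 0.114. The smaller Lipa-/- difference at 34-weeks was tested as an interaction of genotype and time, which gave 2.98 (SE 0.92) for Onecut1 with an adjusted p of 0.268, where 0.0619% of all genes passed and no member did.

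Nr5a2 (chr1:136770303-136888186, minus strand, GRCm39), the bile acid and cholesterol nuclear receptor, was at 33.9, 38.4 and 46.4 CPM in WT, 25.5, 26.4 and 23 CPM in Lipa-/- and 30, 35.8 and 29.5 CPM in treated livers at 12-weeks. The Lipa-/- livers were the lowest, with no overlap. They were 1.58-fold lower than WT (log2 -0.66, SE 0.23, adjusted p = 0.0279), a call that held without WT mouse 1 and was lost without any other single library, at -0.53 without WT mouse 3 and -0.60 to -0.70 otherwise.
At 34-weeks Nr5a2 was at 46.4, 42.1 and 47 CPM in WT, 20.5, 27.8 and 30.6 CPM in Lipa-/- and 52.5, 42.9 and 26.2 CPM in treated livers. Treated mouse 12 lay within the Lipa-/- range. Nr5a2 was 1.72-fold lower in Lipa-/- than in WT livers (adjusted p = 0.00931, lost without Lipa-/- mouse 4 at -0.59), and 1.54-fold higher in treated than in Lipa-/- livers (adjusted p = 0.0355, lost without Lipa-/- mouse 4 at 0.44 or 5 at 0.66 or treated mouse 9 at 0.39 or 11 at 0.58).
Prox1 (chr1:189850232-189904637, minus strand, GRCm39), which also marks lymphatic endothelium, was at 27.2, 20.3 and 43 CPM in WT, 70.6, 31.9 and 15.8 CPM in Lipa-/- and 26.3, 28 and 29.8 CPM in treated livers at 12-weeks. At 34-weeks it was at 38.6, 88.1 and 60.5 CPM in WT, 36.6, 38 and 55.2 CPM in Lipa-/- and 117, 53.1 and 36.8 CPM in treated livers. Prox1 overlapped between the groups at each time and passed in none of those comparisons. Its rise of 1.30 between treated livers of 12-weeks and 34-weeks (adjusted p = 0.0392) was lost without treated mouse 10 (1.29), 11 (1.30) or 12 (1.38) of 12-weeks or treated mouse 9 of 34-weeks (0.68).

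Within groups, the members tended to be ordered by mouse. Lipa-/- mouse 9 was the lowest of its 12-weeks group for all 9 members and mouse 5 the highest for 8, WT mouse 2 was the lowest of its 12-weeks group for 6, and at 34-weeks Lipa-/- mouse 4 and WT mouse 1 were each the lowest for 7. A neutrophil marker sum of 128 to 1650 CPM in Lipa-/- livers of 12-weeks, against 1.51 to 7.5 CPM in WT livers, shows that the Lipa-/- livers also differed among themselves in other cells, whose part was not tested.

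The change in the treated group between times was tested against that in WT. Hnf4a, Cebpb, Foxa1 and Onecut1 passed this interaction (1.85, 1.88, 1.85 and 4.27 on the log2 scale, adjusted p of 0.0241, 0.025, 0.0266 and 0.0237), where 19.6% of all genes passed. Cebpa at 1.06 (adjusted p = 0.0637) and Foxa2 at 1.63 (adjusted p = 0.0607) did not. For Hnf4a, Cebpb, Foxa1 and Cebpa the treated livers themselves were higher at 34-weeks than at 12-weeks, by 1.74, 1.52, 1.12 and 1.12, and Onecut1 by 1.61 did not pass (adjusted p = 0.0564).

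Base composition moved with the difference in treated livers of 12-weeks. The longest Cebpb transcript has 67.2% G and C and lies at the 99.9th percentile of tested genes, Cebpa 62.6% at the 99.2nd, and Foxa2 59% at the 95.2nd, followed by Foxa3 at 54.5%, Foxa1 at 54.5%, Hnf4a at 53.6%, Onecut1 at 47.6%, and Nr5a2 and Prox1 at 46.1%. Across 5 equal groups of genes by GC content, from the lowest to the highest, the median log2 difference of treated from WT livers at 12-weeks went from 0.40 to -0.36, and that of treated from Lipa-/- livers from 0.42 to -1.02. In Lipa-/- against WT livers it went the other way: it was -0.22 in the lowest and 0.31 in the highest group by GC content at 12-weeks, and -0.25 and 0.29 at 34-weeks.
With a smooth trend in transcript length and GC content taken out (an alternative chosen after seeing the data), all 6 members still passed as lower in treated than WT livers of 12-weeks, at -1.44 for Hnf4a, -0.57 for Cebpa, -1.64 for Cebpb, -1.48 for Foxa1, -1.13 for Foxa2 and -3.39 for Onecut1. Cebpa was thus no longer lower by more than 1 log2 unit. Between treated and Lipa-/- livers of 12-weeks the values then turned to 0.88 for Cebpa and 0.87 for Foxa2, both higher and passing, and Hnf4a went from -1.04 to -0.20 and no longer passed, while Cebpb remained lower at -1.58. In Lipa-/- livers of 12-weeks the trend-free values were -1.24 for Hnf4a and -1.44 for Cebpa, both lower and passing, and -0.06 for Cebpb.

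**Figure D4:**
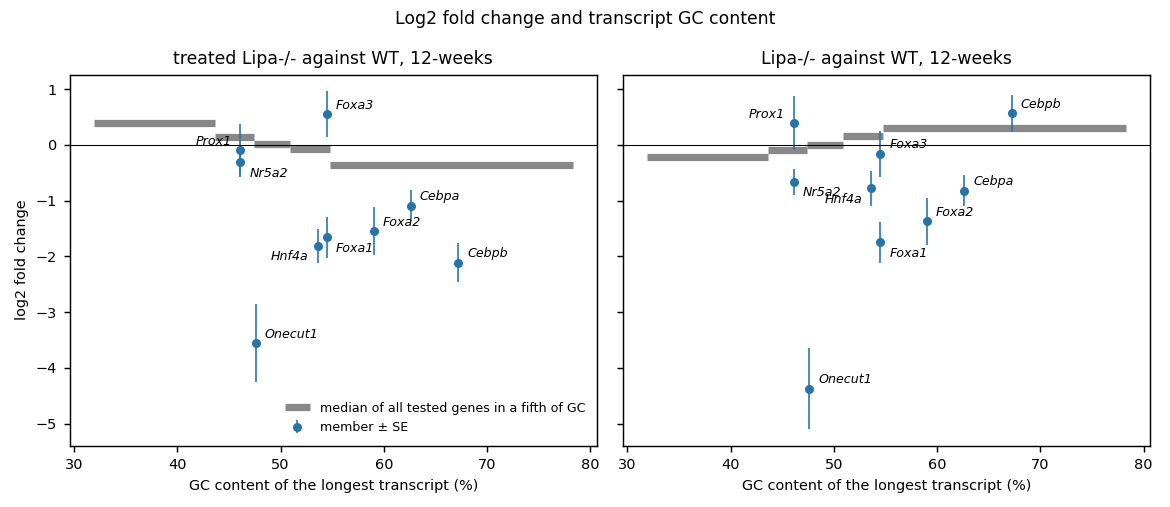
Log2 fold change of treated (left) and untreated Lipa-/- livers (right) against WT at 12-weeks, plotted over the GC content of the longest transcript; points are the 9 members with 1 standard error and grey bars are medians of tested genes in 5 equal groups by GC content. The medians go from 0.40 to -0.36 on the left and from -0.22 to 0.31 on the right, and Cebpb lies at the GC-rich end.

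The effective length that the authors' quantification gave each gene, which moves with the mix of transcripts, was compared as a separate readout. Foxa2, with 4 annotated transcripts of 775 to 3207 bases, had an effective length of 1467 ± 94.5 bases in WT, 1702 ± 116 in Lipa-/- and 1736 ± 87.8 in treated livers at 12-weeks, and of 1582 ± 45.2, 1761 ± 124 and 1486 ± 110 bases at 34-weeks (SD, n = 3). The Lipa-/- length of Foxa2 was 207 bases above WT over both times (two-sided exact permutation test within time, p = 0.005), which over the 18 length comparisons made gave an adjusted p of 0.09. Neither Cebpa, at -96.6 bases, nor Foxa1, at 123 bases, passed after adjustment (both 0.12, from the same exact permutation test), and no other member did.

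The other factors of the hepatic network and genes known to be bound by the members were counted next, by lists that also hold genes regulated by much else. These lists were chosen with earlier results of these data known. Of all genes tested, 16.3% were lower in Lipa-/- than WT livers at 12-weeks, 23.5% at 34-weeks, and 17.5% in treated than WT livers at 12-weeks. In the same order, 3332, 3455 and 2813 of the 14533 genes were higher. Of 17 other hepatic transcription factors tested, 6 were lower and 1 higher in Lipa-/- than WT livers at 12-weeks, 7 lower and 1 higher at 34-weeks, and 8 lower in treated than WT livers at 12-weeks. At 34-weeks the largest falls in Lipa-/- livers were those of Tbx3, a T-box factor (log2 -1.99, SE 0.58, adjusted p = 0.00915), Creb3l3, which drives lipid genes in fasting (-1.89, SE 0.22, adjusted p = 4.34e-06), the corepressor Nr0b2 (-1.75, adjusted p = 0.0382) and the bile acid receptor Nr1h4 (-1.63, adjusted p = 1.86e-05). Of the 5 other C/EBP genes, Cebpd, another acute phase factor, rose at both times, by 1.96 (adjusted p = 0.000169) and 2.39 (adjusted p = 2.09e-05), Cebpz, a nucleolar protein grouped here by its name, fell at 12-weeks by 0.54 (adjusted p = 0.021) and Cebpe fell at 34-weeks by 1.52.

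Targets of HNF4A fell in Lipa-/- livers in 8 of 15 at 12-weeks and 11 of 15 at 34-weeks, against 16.3% and 23.5% of all genes. Their medians were -0.97 and -1.50, and none rose. In treated livers of 12-weeks, where Hnf4a itself was 3.51-fold below WT, 2 of the 15 were lower and 2 higher, with a median of 0.12. Cyp8b1, the sterol 12-hydroxylase of bile acid synthesis, was at 15.7 CPM in Lipa-/- and 365 CPM in WT livers at 34-weeks (log2 -4.54, SE 0.43, adjusted p = 5.01e-07) and differed by 0.14 between treated and WT livers at 12-weeks. Tdo2, which opens tryptophan breakdown, fell by 3.28, the urea cycle gene Otc by 2.84 and the HDL protein gene Apoa2 by 2.27 at 34-weeks, and Otc was higher in treated than WT livers at 12-weeks by 0.90 (adjusted p = 0.0399). Against untreated Lipa-/- livers, 13 of the 15 were higher in treated livers at 34-weeks, where 19.6% of all genes were higher.

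Targets of C/EBPA fell in 6 of 11 and 10 of 11 in Lipa-/- livers, against 16.3% and 23.5% of all genes, with medians of -0.81 and -1.50. Among them were Agxt (glyoxylate removal, -2.17 at 34-weeks), the urea cycle genes Ass1 (-2.13) and Arg1 (-1.66) and G6pc of glucose release (-1.61). In treated livers of 12-weeks 4 were lower and 1 higher than WT, G6pc at -1.33 (adjusted p = 0.044) and Arg1 at 1.0 (adjusted p = 0.0227), with a median of 0.01. Of 16 acute phase genes, which C/EBPB and other factors drive, 12 rose and 1 fell in Lipa-/- livers at 12-weeks, and 9 rose and 2 fell at 34-weeks. Of the 14533 genes tested, 3332 and 3455 rose in these comparisons. Lcn2 rose by 6.23, Saa3 by 5.39, Il1rn by 5.13 and Orm2 by 4.32 at 34-weeks, while Crp fell by 1.39. In treated livers of 12-weeks, where Cebpb was 4.31-fold below WT, 6 of the 16 were higher than WT and none lower, Saa3 by 4.51. Of the 14533 genes tested, 2813 were higher there.

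Of 10 FOXA targets, 6 fell in Lipa-/- livers at 12-weeks and 6 fell and 1 rose at 34-weeks, and in treated livers of 12-weeks 4 were lower. Of all genes, 16.3%, 23.5% and 17.5% were lower in these comparisons in turn. Ttr, the thyroxine carrier, fell by 1.97 at 34-weeks, while Igfbp1, an insulin-responsive binding protein, rose by 4.3. Of 9 genes linked to NR5A2 or PROX1, 3 and 4 fell in Lipa-/- livers, against 16.3% and 23.5% of all genes. The bile salt pump gene Abcb11 was at -2.81 at 34-weeks. In treated livers of 34-weeks no gene of the transcription factor, target, acute phase or fetal lists passed against WT, where 0.22% of all genes passed. Among markers of other cells, 2 of 12 macrophage genes were higher, Gpnmb by 7.01 (edgeR, adjusted p = 0.00147) and Trem2 by 2.92 (adjusted p = 0.0259). The lymphocyte gene Cd8a was higher by 2.55 (adjusted p = 0.0309). The neutrophil sum was 2.78 to 801 CPM against 1.94 to 7.5 CPM in WT, with no gene passing. The 11 hepatocyte products fell in 3 at 12-weeks and in 8 at 34-weeks in Lipa-/- livers, where 1 rose, against 16.3% and 23.5% of all genes that fell. Their medians were -0.62 and -1.13, and none passed in treated livers of 12-weeks, with a median of 0.01.

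**Figure D5:**
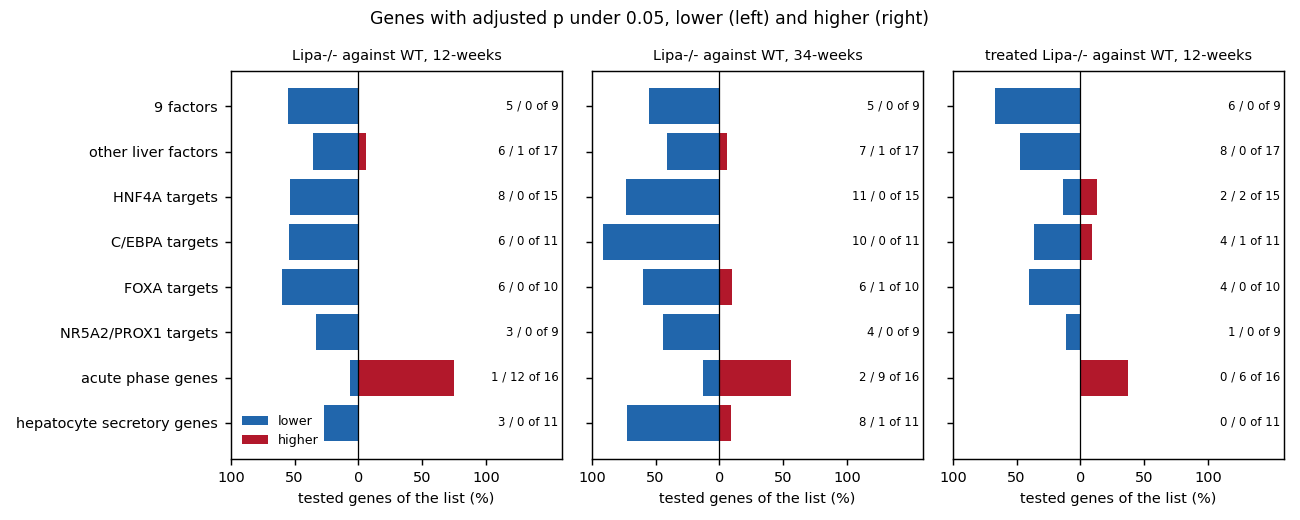
Share of each list's tested genes that passed as lower or higher at an adjusted p of 0.05, in Lipa-/- livers of both times and treated livers of 12-weeks, each against WT; the numbers give lower / higher of tested genes. HNF4A and C/EBPA targets are lower in Lipa-/- livers at 34-weeks in 11 of 15 and 10 of 11, and in treated livers at 12-weeks in 2 of 15 and 4 of 11. Of all genes tested, 23.5% and 17.5% were lower in these comparisons.

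The pattern of each member over the 18 livers was compared with that of 12599 genes, as the root mean square (RMS) difference of centred log2 CPM, where a lower value means a closer pattern and libraries share their scaling. The difference was not scaled to a member's own RMS about its mean, so members that vary little give lower values. That RMS was 0.388 for Nr5a2, 0.665 for Cebpa, 0.949 for Cebpb and 1.653 for Onecut1. Among the members, Cebpa and Foxa2 were closest, at 0.372, then Hnf4a and Cebpa at 0.395, and Cebpb and Onecut1 were farthest apart at 1.886. The genes nearest to Cebpa were Pex5 at 0.14, Slc29a1 at 0.153 and Gys2, the liver glycogen synthase, at 0.166, and the nearest to Hnf4a was Aars2 at 0.182. Foxa2 was nearest to Igfals at 0.314, Foxa3 to the heat shock gene Hspa8 at 0.279, Foxa1 to Ulk2 at 0.32, Nr5a2 to Rptor at 0.156 and Prox1 to Tmem245 at 0.355. Cebpb, with Tbc1d25 at 0.403, and Onecut1, with Plcxd2 at 0.921, had no closer gene.

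Several members share their position with other genes. Hnf4a overlaps the antisense Hnf4aos, Cebpa the opposite-strand Gm45091, Cebpb the gene Peds1, and Onecut1, Nr5a2 and Prox1 overlap non-coding genes on 1 or both strands. The quantification detected the library type by itself and the result is not given in the sources used here, so reads of such partners cannot be told apart with certainty.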

How the data were processed

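Livers of 18 male mice were sequenced as paired-end reads of 150 bases. The authors aligned reads to the GRCm39 Ensembl 110 transcripts with Salmon 1.9.0 and summed them per gene with tximport 1.28.0 in R 4.3.0. The deposited table gives estimated counts, of which 19.4% were not whole, TPM and effective gene lengths. A separate deposited table of the authors' own comparisons by DESeq2 1.40.1, with log2 fold changes and p-values, was not used, and no sample column was left unused. ERCC spike-ins are named in the labels, and the table holds 0 such rows.

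Estimated counts were rounded, genes with more than 100 reads in all were kept, and 1 edgeR 4.0.16 quasi-likelihood model (R 4.3.3) with TMM factors and 1 mean per group was fitted to all 18 libraries. P-values were adjusted over all tested genes by Benjamini-Hochberg. A gene passed at an adjusted p under 0.05, and was called at an absolute log2 fold change above 1 as well. Fold changes came from the edgeR fit, and a prior count of 2 was used only for log2 CPM, in the principal components, pattern comparison and length and GC trend. Ratios and lengths were compared by exact permutation within time. Alternatives were DESeq2 1.42.0, limma 3.58.1 on log2(TPM + 0.1), other scalings, no filter, each library left out, a replicate block and a length and GC trend. GC content was available for 98.4% of tested genes. Profiles of any 2 libraries correlated at up to 0.983, so none was a duplicate, and the lowest correlation within a group was 0.93. Replicate numbers did not pair the mice across times. Scripts were tested on simulated data.

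The members and the gene lists were chosen with earlier results of these data known. Besides the members, the text names the genes of each list with the largest change among those called in Lipa-/- against WT livers at 34-weeks, if their mean level reached 1 CPM, and the same genes elsewhere. Some genes that this rule names are not reported here. Crp and Cebpz, named as list members that fell, were chosen after their values were seen. Gene positions are from the GENCODE M39 annotation of GRCm39, promoter sequences from RefSeq on GRCm38.p6. The limit of 3 counts covers counting error only.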

Additional observations from a re-analysis of the deposited data

Results flagged for a closer look

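The change between 12-weeks and 34-weeks differed between treated and WT livers, by an interaction test (edgeR, adjusted over all genes), for 4 of the 9 factors: Hnf4a by 1.85 on the log2 scale (SE 0.43, adjusted p = 0.0241), Cebpb by 1.88 (SE 0.48, adjusted p = 0.025), Foxa1 by 1.85 (SE 0.50, adjusted p = 0.0266) and Onecut1 by 4.27 (SE 0.93, adjusted p = 0.0237). In each case treated livers lay below WT at 12-weeks, by -1.81 for Hnf4a, -2.11 for Cebpb, -1.66 for Foxa1 and -3.56 for Onecut1, and near or above WT at 34-weeks, at 0.04, -0.23, 0.18 and 0.71. Of all genes tested, 19.6% passed this interaction.

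The calls rested on single libraries. All 4 were lost without WT mouse 1 of 12-weeks, WT mouse 3 of 12-weeks, WT mouse 1 of 34-weeks or treated mouse 9 of 34-weeks, with values of 1.58 to 1.97 for Hnf4a, 1.75 to 1.99 for Cebpb, 1.57 to 1.81 for Foxa1 and 3.88 to 4.37 for Onecut1. Without treated mouse 10 of 12-weeks, Cebpb (1.74) and Foxa1 (2.00) were lost, and without treated mouse 11 of 34-weeks Foxa1 (1.76). The 3 treated livers of 12-weeks had TMM factors of 0.587 to 0.759. On total reads without TMM factors, 6 members passed this interaction, all higher, and scaled to the hepatocyte products 3 did. With the length and GC trend taken out, an alternative chosen after seeing the data, all 4 still passed, at 1.41 for Hnf4a, 1.31 for Cebpb, 1.62 for Foxa1 and 4.12 for Onecut1, and in a fit of only the groups compared none passed, at 1.93 for Hnf4a, 1.97 for Cebpb, 1.93 for Foxa1 and 4.37 for Onecut1 (adjusted p of 0.0549 to 0.0568, edgeR). Time and study code cannot be told apart.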

How the results depend on the processing

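Counts are of members lower or higher by more than 1 log2 unit with an adjusted p under 0.05, and were 3 for Lipa-/- against WT at 12-weeks, 3 at 34-weeks, 6 and 0 for treated against WT, 2 and 4 for treated against Lipa-/- livers, 0 over time in WT and Lipa-/- livers, 6 in treated livers, 0 for the Lipa-/- interaction and 4 for the treated one. With the adjusted p alone, Lipa-/- against WT gave 5 and 5, and treated against Lipa-/- at 34-weeks 7. DESeq2 gave 1 over time in WT and 1 for the Lipa-/- interaction, and no filter 1 over time in WT. For treated against Lipa-/- livers at 12-weeks and 34-weeks, where the main calls were 2 lower and 4 higher, total reads gave 4 (all lower) and 1 (Cebpb, lower), limma on TPM 5 (all lower) and 2 (Foxa2 higher, Cebpb lower), and hepatocyte products 1 at 34-weeks (Cebpb, lower). For Lipa-/- against WT at 34-weeks, where the main 3 were lower, hepatocyte products, total reads and limma on TPM each gave 2 (Cebpb and Foxa3), both higher. Fitting only the groups compared gave 0 for the treated interaction. For the same interaction total reads gave 6, limma on TPM 6, DESeq2 5 and hepatocyte products 3, all higher. The length and GC trend, chosen after seeing the data, gave 5 for Lipa-/- against WT at 12-weeks, 1 for treated against Lipa-/- at 12-weeks and 2 over time in treated livers. The cause of these shifts was not tested. Total reads moved the median of all genes to 0.49, 0.60, -0.33, 0.09, -1.05 and -0.51 for Lipa-/- against WT, treated against WT and treated against Lipa-/- at 12-weeks and 34-weeks in turn.

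Leaving out 1 library gave a treated against WT ratio of Cebpb to Cebpa of -0.67 to -0.48 on the log2 scale. In counts it gave 2 to 3 for Lipa-/- against WT at 12-weeks and 1 to 5 at 34-weeks (1 without Lipa-/- mouse 4, 5 without WT mouse 1), 4 to 6 and 0 to 0 for treated against WT, 1 to 2 (1 without Lipa-/- mouse 8 or treated mouse 10) and 3 to 5 for treated against Lipa-/-, 0 over time in WT and Lipa-/- livers, 3 to 6 in treated livers (3 without treated mouse 10 of 12-weeks, or 9 or 11 of 34-weeks), 0 for the Lipa-/- interaction and 0 to 6 for the treated one (0 without WT mouse 1 or 3 of 12-weeks, WT mouse 1 or treated mouse 9 of 34-weeks, and 2 without treated mouse 10).

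Among values that passed in the main fit or the alternative, signs turned under scaling to hepatocyte products in Lipa-/- against WT at 34-weeks for Hnf4a (0.23) and Nr5a2 (0.30), with Foxa1 at 0, and in treated against Lipa-/- at 34-weeks for Hnf4a (-0.21) and Nr5a2 (-0.41). They also turned in treated against Lipa-/- at 12-weeks for Nr5a2 with limma on TPM (-0.79) and for Cebpa (0.88) and Foxa2 (0.87) with the length and GC trend.

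Same-numbered mice of the 2 times shared only a number: their deviations correlated at 0.08, -0.24 and 0.46 in WT and at -0.08 and -0.25 in treated livers. With the replicate number as a block, 0 members were called over time in WT and 4 in treated livers. Without the 3 treated libraries of 12-weeks, Lipa-/- against WT at 12-weeks gave 3. Depth limited Onecut1 most, whose lowest level of 0.768 CPM was above the 0.0946 to 0.291 CPM that 3 reads give.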

Other observations

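Genes of fetal liver were seen in Lipa-/- livers beside the lower adult factors. Of 8 such genes listed, 7 had a row and 4 were tested, and 3 passed as higher at 12-weeks and 4 at 34-weeks, when Gpc3, a fetal and tumour surface proteoglycan, was higher by 4.47, Cd24a, a progenitor and duct cell surface protein, by 4.31 and Afp, the fetal counterpart of albumin, by 1.71 (edgeR). Of the 14533 genes tested, 3332 and 3455 were higher at these times. The filter summed reads over all 18 libraries, so a gene low elsewhere could be tested through its level in Lipa-/- livers. Igf2, for example, was at 3.15 CPM in Lipa-/- and 0.248 CPM in WT livers at 34-weeks. The summed level of the 7 genes with a row was 2.79 to 4.85 CPM in WT, 12.5 to 84.9 CPM in Lipa-/- livers at 12-weeks and 46.5 to 79.2 CPM at 34-weeks. Against untreated Lipa-/- livers, all 4 were lower in treated livers at 34-weeks, where 21.4% of all genes were lower. At 12-weeks 2 of the 4 were lower in that comparison, where 30.4% of all genes were lower. Afp was higher in treated than WT livers of 12-weeks (log2 1.81, edgeR, adjusted p = 0.0119), the only 1 of the 4. It was then at 4.68 CPM in treated, 4.29 CPM in Lipa-/- and 1.33 CPM in WT livers.

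Markers of other liver cells were also counted. Of the 14533 genes tested, 3332 at 12-weeks and 3455 at 34-weeks were higher in Lipa-/- than WT livers, and 16.3% and 23.5% were lower. Of 12 macrophage genes 10 were higher and 1 lower in Lipa-/- than WT livers at 12-weeks, and 9 higher and 2 lower at 34-weeks, among them Gpnmb of lipid-laden macrophages at 12.31, Trem2 at 7.85, Cd14 at 6.06 and Itgax at 5.66 on the log2 scale. All 9 neutrophil genes were higher at 12-weeks and 7 at 34-weeks. Of 8 cholangiocyte genes 4 and 7 were higher, and of 6 stellate genes 4 and 5, with 1 lower at each time. The filter on summed reads bears on the neutrophil and cholangiocyte counts too. Ly6g was at 2.96 CPM in Lipa-/- and 0 CPM in WT livers at 12-weeks. Cftr was at 1.88 CPM in Lipa-/- and 0.0847 CPM in WT livers at 34-weeks. Endothelial genes (6) had 1 higher and 2 lower at each time, lymphatic endothelial genes (5) 1 higher at 12-weeks and 3 higher and 1 lower at 34-weeks, and lymphocyte genes (6) 2 higher at 12-weeks and 2 higher and 1 lower at 34-weeks.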
